A study of Mus musculus with 8 samples.

Results

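The 38 genes described here are expressed by hepatic stellate cells, fibroblasts and other mesenchymal cells of the liver, or encode non-collagen proteins of the extracellular matrix. They were chosen by name from the gene column of the array files, with collagens left out, and each gene was represented by its brightest probe on average. The 38 genes and the other lists below were chosen with earlier results of these data known. Their counts beside those of all genes therefore describe the data and are not independent support. All 38 had a probe (50 probes in all, 9 genes with more than 1), and all 38 were well above background on all 8 arrays. They are 38 of the 23526 genes tested. They were compared between livers of wild-type mice and of littermates that inherited from the mother a chromosome deleted for the miR-379/miR-410 cluster of microRNAs. The latter are called knockout here.

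All pups were on the C57BL/6J background and came from caesarean sections at E19.5. They were killed 4 h later, and RNA came from pieces of the large liver lobe. There were 4 arrays per genotype, which the series description calls biological replicates. The deletion is carried by the animal and not limited to 1 cell type, so the arrays report on whole liver in which every cell had the same genotype. In whole tissue, fewer cells of a type and less RNA per cell cannot be told apart.

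Hepatic stellate cells lie between hepatocytes and the sinusoidal endothelium, store retinyl esters in lipid droplets and wrap the sinusoids as pericytes do. Portal fibroblasts surround the bile ducts and vessels of the portal tracts and lay down elastic fibres, in which elastin is deposited on fibrillin microfibrils with the help of fibulins and cross-linked by lysyl oxidases. When either cell type is activated it makes smooth muscle actin and more matrix, which metalloproteinases and their inhibitors then remodel. The portal tracts and their mesenchyme are still growing at birth.

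RefSeq (GRCm38.p6) lists 71 mature microRNAs from Mir379 to Mir410 on chromosome 12, and 5 of them are shown because this stretch gives the deletion its name and is what the groups differ by. Capitals mark the seed (bases 2 to 8). The first pair shares the seed GGUAGAC and the second pair AUGUAAC, 2 of 7 seeds that occur more than once among the 71. The microRNAs themselves were not measured here.
mmu-miR-379-5p (chr12:109709065-109709085, + strand): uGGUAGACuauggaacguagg
mmu-miR-1193-5p (chr12:109715716-109715735, + strand): uGGUAGACcggugacguaca
mmu-miR-379-3p (chr12:109709102-109709123, + strand): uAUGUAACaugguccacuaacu
mmu-miR-411-3p (chr12:109710225-109710246, + strand): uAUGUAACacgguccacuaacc
mmu-miR-410-3p (chr12:109743764-109743784, + strand): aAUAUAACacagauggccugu

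The share of spots well above background ranged from 58.6% to 66.2% per array. Every level below is a log2 signal after subtraction of the 75th percentile of its array, and differences are knockout minus wild-type on the log2 scale with their standard error (SE). Mirg, a noncoding transcript of the imprinted domain that holds the cluster, averaged 2.16 ± 0.06 in wild-type and -0.54 ± 0.33 in knockout livers (SD, n = 4 each; limma adjusted p = 0.000326). In both groups, array 4 resembled a mixture of the group's remaining arrays. With weights fitted on the other 23488 genes, wild-type 4 took 0.553 from wild-type 3 and 0.363 from wild-type 2, and knockout 4 took 0.620 from knockout 3 and 0.244 from knockout 2. These sums predicted the 38 genes of knockout 4 with a median absolute error of 0.06 log2, against 0.11 to 0.18 for the other knockout arrays. Those of wild-type 4 were predicted with 0.09, against 0.10 to 0.17, which is a narrower margin. Fitted the same way, wild-type 3 took 0.695 from wild-type 4, and knockout 3 took 0.956 from knockout 4. The p-values from 8 arrays are too small if replicate 4 is not independent, so values from 6 arrays without it stand beside them. Xist, made from the inactive X chromosome, was detected above background in 3 knockout and 0 wild-type livers, and the Y-linked Ddx3y in 2 knockout and 3 wild-type livers. Knockout 1 and 2 had only Xist (1.72 and 1.52) and knockout 3 only Ddx3y (2.30). Knockout 4 had both, with Xist at -0.14 and Ddx3y at 1.81. Wild-type 3 had neither, and the other wild-type arrays had Ddx3y. The cause of these patterns was not tested. Each genotype occupied its own column of the single slide, and an effect of the column cannot be told apart from that of the genotype.

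Most of the 38 genes had lower levels in knockout livers. The elastic fibre genes Fbln2, Mfap4, Mfap5, Eln, Loxl1 and Fbln1, the portal fibroblast surface protein Thy1, the proteoglycan Ogn and the growth factor Ptn stood at 27.3% to 74.3% of their wild-type level. The 9 stellate and pericyte genes were divided. Pdgfrb, Des, Cygb, Hand2 and Rgs5 stood at 76.8% to 84.4% of wild-type, the first pair without overlap, while Lrat, Hgf, Reln and Ngfr overlapped at 95.1% to 111%. The contractile gene Acta2 overlapped at 95.8%. The mean was lower in knockout for 33 of the 38 genes, against 43.5% of all genes tested, and higher for 5, against 56.5%, and the median difference was -0.25, against 0.03 over all genes. In 15 of the 38 every knockout array lay below every wild-type array, against 4.33% of all genes. The opposite pattern, every knockout array above every wild-type array, occurred in 0 of the 38 and in 4.72% of all genes.

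No single gene of the 38 passed limma's adjusted p under 0.05 over all genes (0 lower and 0 higher), where 0.179% of all genes passed as lower and 0.0383% as higher. At an unadjusted limma p under 0.05, 20 of the 38 were lower and 0 higher, against 6.48% and 6.84% of all genes. Every one of the 15 had an exact two-sided permutation p of 0.0286, which is the lowest value possible with 70 ways of splitting the arrays. That value follows from the lack of overlap by which the 15 were picked, so it adds nothing to it. The smallest limma adjusted p values were 0.0612 for Fbln2 and 0.0629 for Mfap4. From 6 arrays the limma adjusted p was 0.497 for Fbln2, Mfap4 and Ogn, 0.573 for Eln and 0.577 for Mfap5. In the authors' deposited table, fitted the same way, Fbln2, Mfap4 and Thy1 passed (limma adjusted p = 0.0248, 0.0363 and 0.0323), and other settings with all 8 arrays called 0 to 7 of the 38. With 6 arrays limma called 0 of the 38 at an adjusted p under 0.05 (0.0255% of all genes were called lower). At an unadjusted p under 0.05, 14 were then lower (3.88% of all genes) and 0 higher (3.45%). The groups did not overlap in 16 of the 38, all lower in knockout (6.15% of all genes), with 0 in the other direction (7.38%). The mean was lower for 34 (44.4% of all genes) and higher for 4 (55.6%), and the median was -0.26.

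**Figure D1:**
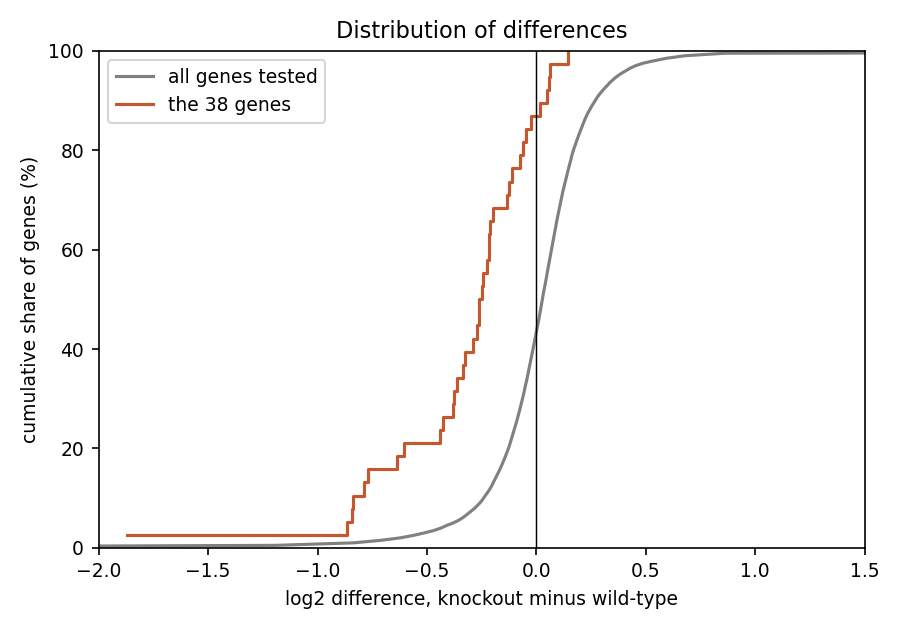
Cumulative share of genes (in percent) by log2 difference, knockout minus wild-type, for the 38 genes (orange steps) and for all 23526 genes tested (grey). The orange line reaches 33 of 38 genes before 0, while 43.5% of all genes lie below 0.

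**Figure D2:**
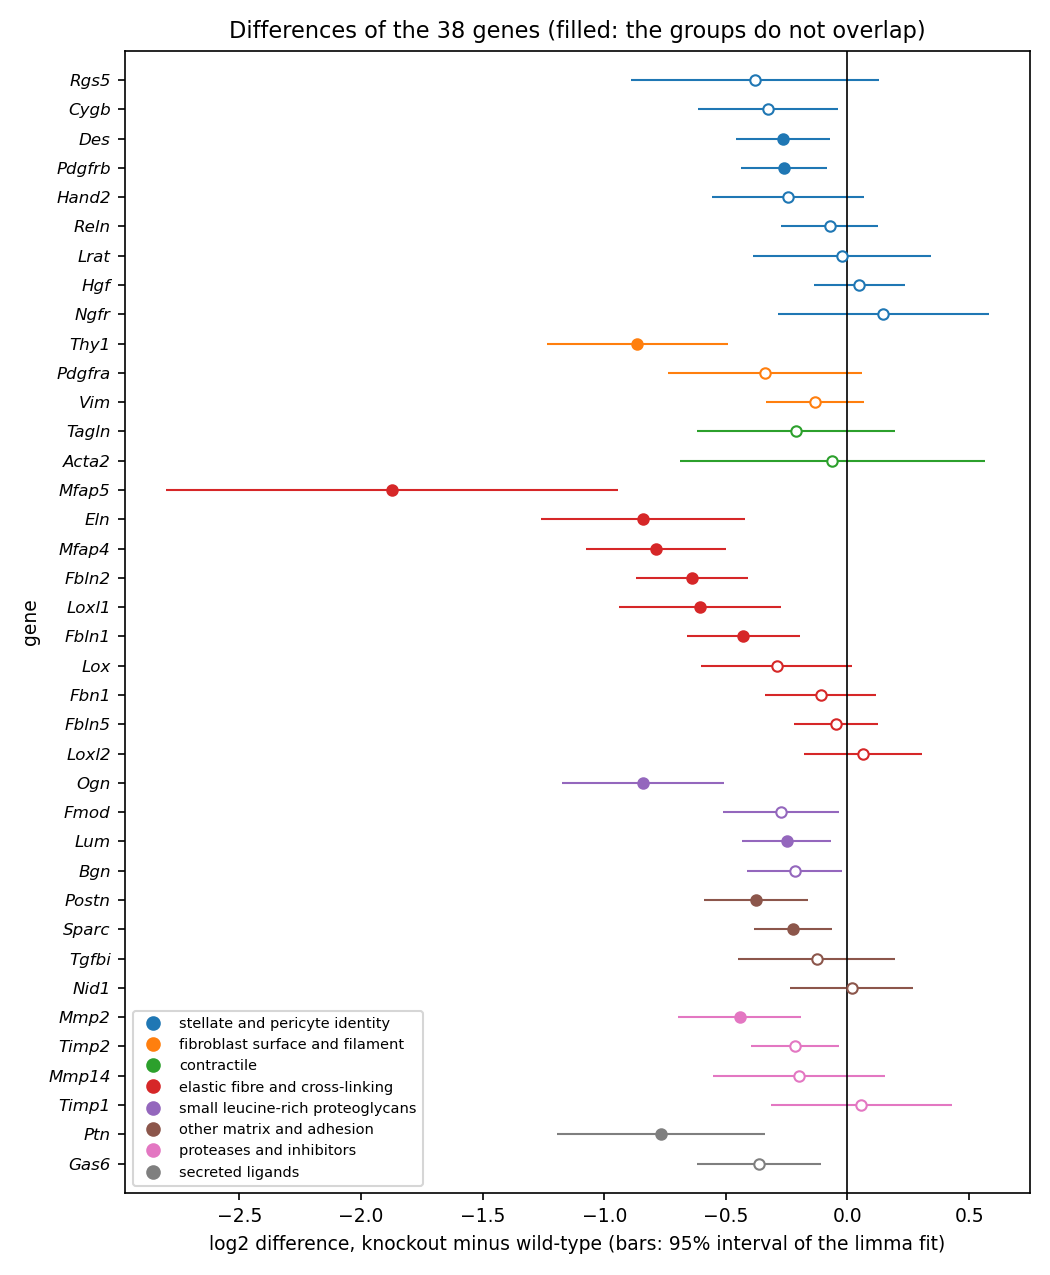
Log2 difference, knockout minus wild-type, of each of the 38 genes with its 95% interval from the limma fit on 8 arrays, coloured by role. Filled points mark the 15 genes whose groups do not overlap, 6 of them in the elastic fibre group, and the lowest point is Mfap5 at -1.87.

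Elastic fibre and cross-linking genes formed a group of 10. Of these, 9 had lower means in knockout (43.5% of all genes) and 6 were lower without overlap (4.33% of all genes). The median difference was -0.52. With 6 arrays the median was -0.47. Fbln2 encodes fibulin-2, a glycoprotein of elastic fibres and basement membranes. Its probe lies at chr6:91222118-91222177 (mm9, + strand). Its wild-type levels were 0.87, 0.75, 1.04 and 0.80 on arrays 1 to 4, and its knockout levels 0.24, 0.43, 0.15 and 0.08. Every knockout array was below the lowest wild-type array. The difference was -0.64 (SE 0.10, limma adjusted p = 0.0612, n = 4 arrays per group), which is 64.2% of the wild-type level with a 95% interval of 54.7% to 75.3%. Mfap4, a microfibril-associated glycoprotein that binds elastin (probe at chr11:61302147-61302206, mm9, + strand), stood at 1.46, 1.34, 1.78 and 1.46 in wild-type and at 0.97, 0.78, 0.54 and 0.60 in knockout livers. Wild-type 3 was the highest array and knockout 3 the lowest. Its difference was -0.79 (SE 0.13, limma adjusted p = 0.0629), or 58.0% of wild-type.

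Mfap5 encodes a small microfibril glycoprotein that binds fibrillin. It showed the largest difference of the 38 genes. Its probe (chr6:122478591-122478650, mm9, + strand) read -1.59, -1.76, -0.995 and -1.35 in wild-type and -2.84, -2.37, -4.44 and -3.53 in knockout livers. The groups did not overlap, and the knockout arrays spread more widely than the wild-type ones, with knockout 3 and 4 lowest. The difference was -1.87 (SE 0.41, limma adjusted p = 0.123), or 27.3% of wild-type with a 95% interval of 14.4% to 52.0%. It was -1.77 with 6 arrays and -1.18 without knockout 3 and 4, so its size rests in part on those arrays. With only arrays 1 and 2 of both groups it was -0.93. Normexp background correction with the 75th percentile gave -1.21 and a limma adjusted p = 0.0359.

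Eln encodes elastin itself. Its levels were 0.00045, -0.06, 0.08 and -0.06 in wild-type and -0.49, -0.50, -1.25 and -1.16 in knockout livers. The wild-type arrays lay close together, and knockout 3 and 4 stood well below knockout 1 and 2. The group difference of -0.84 had an SE of 0.18 (limma adjusted p = 0.125) and was -0.48 without knockout 3 and 4. Loxl1, a lysyl oxidase that cross-links elastin, read 0.26, -0.14, 0.32 and 0.17 in wild-type and -0.33, -0.17, -0.67 and -0.64 in knockout livers. Knockout 2 lay just below wild-type 2, and the difference was -0.61 (SE 0.15). It was -0.40 without knockout 3 and 4. A second Loxl1 probe differed by -0.67. Fbln1, another fibulin, read -0.82, -0.95, -0.62 and -0.87 against -1.11, -1.14, -1.39 and -1.34. Its 3 probes differed by -0.43, -0.41 and -0.73, all lower in knockout, and the first by -0.24 with only arrays 1 and 2 of both groups.

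The other 4 genes of this group had overlapping groups. Lox, the founding lysyl oxidase, differed by -0.29 (SE 0.14). Fbn1, which encodes the microfibril protein fibrillin-1, differed by -0.11 (SE 0.10), and it was 0.0040 with only arrays 1 and 2 of both groups. Fbln5, which tethers elastin to microfibrils, stood at 96.8% of wild-type with a 95% interval of 86.0% to 109%. Loxl2, which cross-links collagen IV, had the only higher mean of the group, at 0.06 (SE 0.11), and its 2 other probes differed by 0.23 and 0.31. So elastin, Loxl1, Fbln1, Fbln2, Mfap4 and Mfap5 had no overlap, while fibrillin-1 and Fbln5 of the same fibre did overlap.

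**Figure D3:**
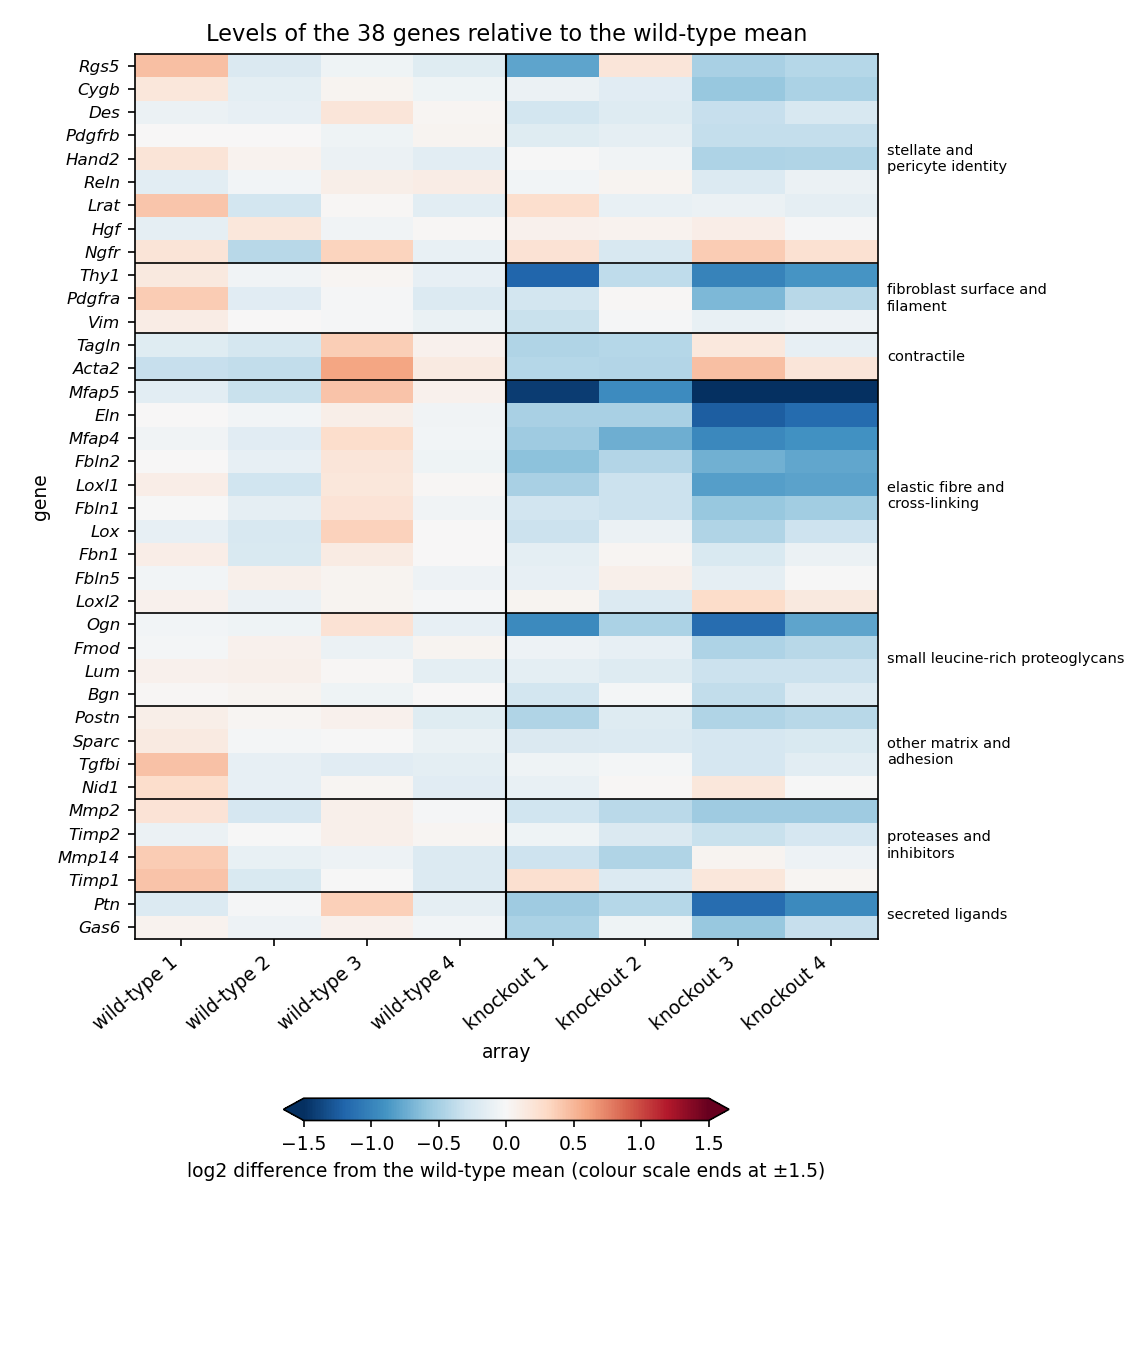
Log2 level of each of the 38 genes on each array relative to the mean of the 4 wild-type arrays, grouped by role and sorted within a role by the difference between groups. Blue is lower and red higher, with colours ending at 1.5 in either direction. The knockout columns are mostly blue, most deeply in the elastic fibre rows of knockout 3 and 4, while the contractile rows Tagln and Acta2 are red in wild-type 3 and in knockout 3.

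Among fibroblast surface and filament genes, Thy1 stood apart from the other 2. Thy1 encodes a GPI-anchored surface protein carried by portal fibroblasts and absent from most quiescent stellate cells. Its probe (chr9:43856591-43856650, mm9, + strand) read 0.0050, -0.20, -0.11 and -0.26 in wild-type and -1.33, -0.53, -1.14 and -1.02 in knockout livers. The groups did not overlap, with knockout 2 the nearest to wild-type. The difference was -0.86 (SE 0.16, limma adjusted p = 0.0890), or 54.9% of wild-type. It was -0.90 with 6 arrays (limma adjusted p = 0.521). Thy1 is also made by T cells and neurons, whose part in it was not tested. Pdgfra, a receptor for platelet-derived growth factor found on fibroblasts and fetal stellate cells, read 0.28, -0.27, -0.13 and -0.31 in wild-type. Its knockout levels were -0.38, -0.09, -0.78 and -0.52, so the groups overlapped. The difference of -0.34 (SE 0.17) had a limma adjusted p = 0.437. Vim, the intermediate filament vimentin, differed by -0.13 (SE 0.09).

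The stellate and pericyte group held 9 genes, of which 7 had lower means (43.5% of all genes). Of the 9, 2 were lower without overlap (4.33% of all genes), and the median difference was -0.24. Pdgfrb, the receptor through which platelet-derived growth factor acts on pericytes and stellate cells, read 0.12, 0.12, 0.05 and 0.16 in wild-type and -0.07, -0.02, -0.25 and -0.25 in knockout livers. All knockout arrays were lower, by a small amount. The difference was -0.26 (SE 0.08, limma adjusted p = 0.214), or 83.4% of wild-type, and it was -0.16 without knockout 3 and 4. Des, the muscle-type intermediate filament desmin, read -1.82, -1.86, -1.55 and -1.70 against -2.003, -1.93, -2.08 and -1.97. Here too the groups did not overlap, and the difference was -0.26 (SE 0.08), or -0.16 without wild-type 3 and 4. Without knockout 3 and 4 the median of the group was -0.03, and without wild-type 3 and 4 it was -0.16.

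Lrat esterifies retinol for storage in stellate cell droplets. It read -0.83, -1.51, -1.23 and -1.41 in wild-type and -0.99, -1.36, -1.34 and -1.38 in knockout livers. Array 1 was the highest in both genotypes, and the groups overlapped throughout. The difference was -0.02 (SE 0.16), with a 95% interval of 76.4% to 127% of wild-type. Hgf, the hepatocyte growth factor secreted by stellate cells, read -1.88, -1.57, -1.79 and -1.72 in wild-type. Its knockout levels of -1.68, -1.69, -1.64 and -1.75 lay inside that range. The difference was 0.05 (SE 0.08), and the interval ran from 90.9% to 118% of wild-type, so a difference as large as that of Fbln2 lies outside it. Reln, a secreted glycoprotein of stellate cells, differed by -0.07 (SE 0.09). Ngfr, the p75 neurotrophin receptor, differed by 0.15 (SE 0.19). Cygb, a globin of stellate cells, stood at 79.7% of wild-type (95% interval 65.4% to 97.2%). Rgs5, a regulator of G-protein signalling in pericytes, differed by -0.38 (SE 0.22) and Hand2, a transcription factor of liver mesenchyme, by -0.24 (SE 0.14). Cygb, Rgs5 and Hand2 all had overlapping groups.

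Acta2 and Tagln, the smooth muscle actin and transgelin that mark contractile cells, varied more within the genotypes than between them. Acta2 (probe at chr19:34316060-34316119, mm9, - strand) read 2.54, 2.51, 3.48 and 3.02 in wild-type and 2.46, 2.44, 3.33 and 3.06 in knockout livers. Arrays 3 and 4 were the high ones in both groups. The genotype difference was -0.06 (SE 0.27), and its 95% interval ran from 62.0% to 148% of wild-type. Tagln was likewise highest on arrays 3 and 4 of each group, with 3.09, 3.00, 3.63 and 3.33 in wild-type and 2.81, 2.84, 3.42 and 3.14 in knockout livers. Its difference was -0.21 (SE 0.18). Without wild-type 3 and 4 the 2 genes had a median difference of 0.15, and without knockout 3 and 4 of -0.44, so the direction of this pair rests on which arrays are compared. Cnn1, the smooth muscle calponin, was high in wild-type 3 at 0.58 and low in knockout 3 at -2.45, unlike Acta2.

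**Figure D4:**
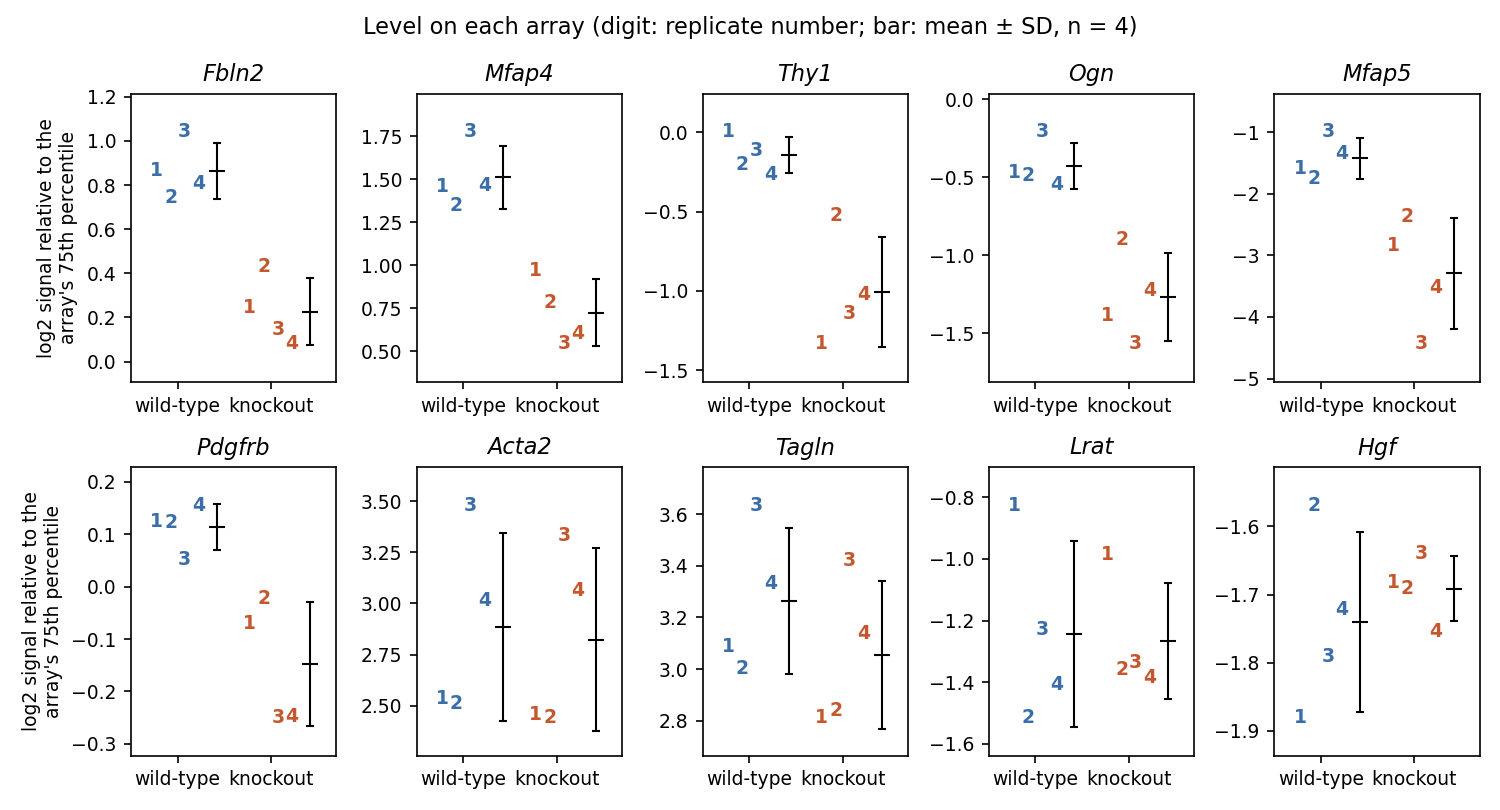
Log2 signal relative to the array's 75th percentile for 10 of the genes. Digits give each array by its replicate number, in blue for wild-type and orange for knockout, and bars give mean ± SD (n = 4). In the first 6 panels the groups do not overlap; in the last 4 they do, and Acta2 and Tagln are high on arrays 3 and 4 of both genotypes.

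All 4 small leucine-rich proteoglycans, which bind collagen fibrils and set their diameter, had lower means in knockout livers (43.5% of all genes). Of the 4, 2 were lower without overlap (4.33% of all genes). Ogn, osteoglycin (probe at chr13:49719549-49719608, mm9, + strand), read -0.47, -0.49, -0.21 and -0.55 in wild-type and -1.38, -0.90, -1.57 and -1.22 in knockout livers. The groups did not overlap, with knockout 2 the highest knockout array and wild-type 4 the lowest wild-type array. Ogn thus differed by -0.84 (SE 0.15, limma adjusted p = 0.0761), or 55.8% of wild-type, and by -0.90 with 6 arrays. Lum, lumican, read 2.69, 2.70, 2.64 and 2.48 against 2.48, 2.43, 2.30 and 2.30. Wild-type 4 lay only just above knockout 1, so the groups were barely separate. Its difference was -0.25 (SE 0.08, limma adjusted p = 0.245). Bgn, biglycan, stood at 86.0% and Fmod, fibromodulin, at 82.8% of wild-type, with upper 95% bounds of 98.4% and 97.7%.

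Of the other matrix and adhesion genes, Postn and Sparc did not overlap. Postn encodes periostin, a matricellular protein of fibroblasts. It read 1.58, 1.52, 1.56 and 1.31 in wild-type and 1.04, 1.30, 1.04 and 1.07 in knockout livers. Knockout 2 lay only just below wild-type 4. The difference was -0.38 (SE 0.09, limma adjusted p = 0.155). Sparc, a collagen-binding matricellular protein, read 7.75, 7.59, 7.62 and 7.52 against 7.40, 7.42, 7.37 and 7.39. The knockout arrays lay close together, and the difference was -0.22 (SE 0.07), but a second, dimmer Sparc probe differed by 0.03 (SE 0.14), so the probes disagree. Tgfbi, a matrix protein induced by TGF-beta, differed by -0.13 (SE 0.14) and Nid1, the basement membrane protein nidogen-1, by 0.02 (SE 0.11).

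Of the proteases and inhibitors, Mmp2, the gelatinase made by fibroblasts and stellate cells, read -0.17, -0.63, -0.30 and -0.40 in wild-type and -0.68, -0.77, -0.91 and -0.91 in knockout livers. All knockout arrays were lower, the nearest being knockout 1. The difference was -0.44 (SE 0.11, limma adjusted p = 0.156), or 73.6% of wild-type. Timp2, an inhibitor of Mmp2 that also takes part in its activation, read 3.07, 3.16, 3.24 and 3.19 against 3.10, 2.95, 2.83 and 2.92. Knockout 1 lay inside the wild-type range, and the difference was -0.22 (SE 0.08). A second Timp2 probe differed by -0.09. Mmp14, the membrane protease that activates Mmp2, differed by -0.20 (SE 0.16), and Timp1, the inducible inhibitor, by 0.06 (SE 0.16) with an interval of 80.5% to 135% of wild-type.

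The secreted ligands both had lower means. Ptn encodes pleiotrophin, a heparin-binding growth factor of mesenchymal cells. It read -0.65, -0.46, -0.09 and -0.59 in wild-type and -0.98, -0.87, -1.59 and -1.40 in knockout livers. The groups did not overlap, and knockout 3 and 4 were lowest. The difference was -0.77 (SE 0.19, limma adjusted p = 0.150), or 58.7% of wild-type, and a second Ptn probe differed by -0.78. Ptn differed by -0.48 without knockout 3 and 4 and by -0.37 with only arrays 1 and 2 of both groups. Gas6, the ligand of the Axl and Mertk receptors, read 2.81, 2.68, 2.82 and 2.71 against 2.28, 2.69, 2.19 and 2.41. Knockout 2 lay just above the lowest wild-type array, so the groups overlapped, and the difference was -0.36 (SE 0.11, limma adjusted p = 0.224).

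RefSeq promoter sequences (GRCm38.p6) were matched for 26 of the 38 genes, 30 starts in all. The 250 bases before the start are shown for 3 genes of different role groups whose levels did not overlap, Fbln2, Ogn and Ptn, and for Acta2, which varied within the genotypes. Capitals mark matches to the motifs searched: TATAAA on the gene's strand, and on both strands GGGCGG (Sp1), GGAATG (TEAD), TGANTCA (AP-1) and the strict consensus of the CArG box, which serum response factor binds. No motif position overlapped another in these 4 windows.
Fbln2 (chr6:91212514-91212763, + strand): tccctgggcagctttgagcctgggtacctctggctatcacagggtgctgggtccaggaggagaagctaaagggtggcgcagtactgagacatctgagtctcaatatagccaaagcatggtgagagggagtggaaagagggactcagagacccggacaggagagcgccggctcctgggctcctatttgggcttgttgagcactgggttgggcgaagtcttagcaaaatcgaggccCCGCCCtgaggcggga
Ogn (chr13:49607765-49608014, + strand): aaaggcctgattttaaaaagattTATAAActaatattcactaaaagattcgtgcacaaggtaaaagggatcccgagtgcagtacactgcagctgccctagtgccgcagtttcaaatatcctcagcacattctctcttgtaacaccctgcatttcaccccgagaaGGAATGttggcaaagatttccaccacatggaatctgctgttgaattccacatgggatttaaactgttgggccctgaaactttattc
Ptn (chr6:36810180-36810429, - strand): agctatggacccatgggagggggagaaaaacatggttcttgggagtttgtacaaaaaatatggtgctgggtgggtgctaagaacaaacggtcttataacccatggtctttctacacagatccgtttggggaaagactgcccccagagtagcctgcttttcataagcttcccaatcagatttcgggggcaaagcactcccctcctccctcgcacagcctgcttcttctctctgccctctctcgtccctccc
Acta2 (chr19:34255374-34255623, - strand): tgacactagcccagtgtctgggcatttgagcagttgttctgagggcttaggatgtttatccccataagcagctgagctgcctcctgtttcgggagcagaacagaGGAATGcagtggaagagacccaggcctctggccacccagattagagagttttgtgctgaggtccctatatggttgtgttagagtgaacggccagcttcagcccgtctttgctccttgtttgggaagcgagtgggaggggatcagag
The Sp1 letters occurred in 53.3% of the 30 member promoters and in 32.7% of the 32851 promoters of the table. TATAAA occurred in 3 of the 30 member promoters against 7.59% of all, and the TEAD letters in 16.7% against 12.6%. The AP-1 letters and the strict CArG consensus were in 0 of the 30 windows, against 6.75% and 1.47% of all promoters. Variants of the CArG consensus, which the Acta2 promoter is known to use, were not searched, so its window may hold such elements. Fbln2 held 1 Sp1 match, Ogn 1 TATAAA and 1 TEAD match, Acta2 1 TEAD match and Ptn none, so Fbln2, Ogn and Ptn shared no searched motif.

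Across arrays, the 38 genes were highest in wild-type 3 for 15 genes (39.5%, against 10.5% of all genes) and in wild-type 1 for 14 (36.8%, against 22.4%). Knockout 3 was the lowest array for 24 of the 38 (63.2%, against 16.4% of all genes). The mean of the 38 genes relative to the wild-type mean was 0.07, -0.11, 0.10 and -0.06 in wild-type and -0.31, -0.22, -0.44 and -0.38 in knockout livers. Wild-type 2 was thus the lowest wild-type array and knockout 2 the highest knockout array, and these 2 lay closest to the other group. The median SD within a group was 0.15 in wild-type and 0.19 in knockout livers for the 38 genes, against 0.17 and 0.13 over all genes. Without wild-type 3 and 4 the median difference was -0.29, with 32 of 38 lower (45.4% of all genes), 6 higher (54.6%) and 19 without overlap and lower (11.2% of all genes). Without knockout 3 and 4 it was -0.19, with 35 of 38 lower (42.1% of all genes), 3 higher (57.9%) and 18 without overlap (7.63%). Adding Xist as a covariate gave a median of -0.39 with 30 of 38 lower, and adding Ddx3y gave -0.28 with 33 lower. The medians over all genes were then -0.001 and 0.02. The shares of all genes that were lower with these covariates are not given.

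Other genes of the same cells and pathways were read from separate lists. Of 27 other non-collagen matrix genes tested (29 listed), 23 had lower means (43.5% of all genes), 10 were lower without overlap (4.33% of all genes) and 12 were lower at an unadjusted limma p under 0.05 (6.48% of all genes). None passed the adjusted threshold, and the median was -0.17. Adamts2, which trims procollagen, differed by -0.51 (SE 0.09, limma adjusted p = 0.0779), and Fbn2, the fetal fibrillin, by -0.48 (SE 0.11). Aspn, asporin, differed by -1.59 (SE 0.29), and 2 of the 4 knockout arrays did not measure it well above background. Of 16 other stellate cell genes, 13 had lower means (43.5% of all genes), with a median of -0.17. Of the 16, 2 were lower without overlap (4.33% of all genes) and 2 higher without overlap (4.72%). Adamtsl2, which binds fibrillin microfibrils, was the lowest of them at -0.74 (SE 0.12, limma adjusted p = 0.0645). Gfap, an intermediate filament of stellate cells, stood the other way at 0.53 (SE 0.16), with every knockout array above every wild-type array, and did not pass (limma adjusted p = 0.224).

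Among TGF-beta and platelet-derived growth factor signalling genes, which drive matrix production, 15 of 21 tested (22 listed) had lower means (43.5% of all genes). The median was -0.08 and 0 passed. At an unadjusted limma p under 0.05, 3 were lower (6.48% of all genes) and 1 higher (6.84%). Of the 21, 1 was lower without overlap, which is near the background of 4.33% of all genes. Ltbp2, a latent TGF-beta binding protein found on elastic fibres, was the gene without overlap at -0.80 (SE 0.21, limma adjusted p = 0.169). The ligand Pdgfc differed by -0.66 (SE 0.17) and Ltbp4 by -0.26 (SE 0.10). Mesothelial markers had a median of -0.04 over 9 genes, with 5 lower (43.5% of all genes) and 4 higher (56.5%).

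Markers of other tissues also differed between the arrays. The summed signal of 10 skeletal muscle markers was 1.17 to 2.32 in wild-type and 0.51 to 0.77 in knockout livers (log2, relative to the 75th percentile), without overlap. Of 8 tested, 6 were lower without overlap (4.33% of all genes). Myl1, which encodes a light chain of fast skeletal myosin, fell by 3.27 (SE 0.42, limma adjusted p = 0.0281), the only gene of these lists to pass; with 6 arrays its limma adjusted p = 0.373. Skeletal muscle holds fibroblasts and matrix of its own. The summed signal of 17 pancreas markers, of which 2 were well above background on no array, was 2.56 to 6.80 in wild-type, highest in wild-type 3 and 4, and 2.64 to 2.78 in knockout livers. Smooth muscle markers (8, of which 1 was on no array well above background) summed to 2.54 to 3.36 and 2.36 to 2.73, with overlap, but the sum follows the brightest genes. By the mean log2 difference of its genes from the wild-type mean, the smooth muscle list did not overlap, at -0.47 to 0.51 in wild-type and -0.95 to -0.63 in knockout livers. In that list 5 of 5 tested genes had lower means (43.5% of all genes), with a median of -0.53. The part of these tissues in the lower levels of the 38 genes was not tested. Hepatocyte markers summed to 12.37 to 12.62 and 12.47 to 12.52, macrophage markers to 7.75 to 8.17 and 7.77 to 7.97, and cholangiocyte markers to 2.72 to 2.94 and 2.58 to 2.83. By the mean difference the cholangiocyte list did not overlap, at -0.08 to 0.11 and -0.28 to -0.16. In that list 7 of 7 genes had lower means (43.5% of all genes), with a median of -0.14. Endothelial markers summed to 6.68 to 7.04 and 6.61 to 6.71, with wild-type 1 the highest. Of 12 genes, 11 had lower means (43.5% of all genes) and 2 were lower without overlap (4.33%), with a median of -0.10. Of 11 hepatocyte genes, 7 had lower means (43.5%) and 1 was lower without overlap (4.33%), with a median of -0.03. Of 10 macrophage genes, 8 had lower means (43.5%) and 1 was lower without overlap (4.33%), with a median of -0.10. The part of these cell types in the result was not tested either.

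**Figure D5:**
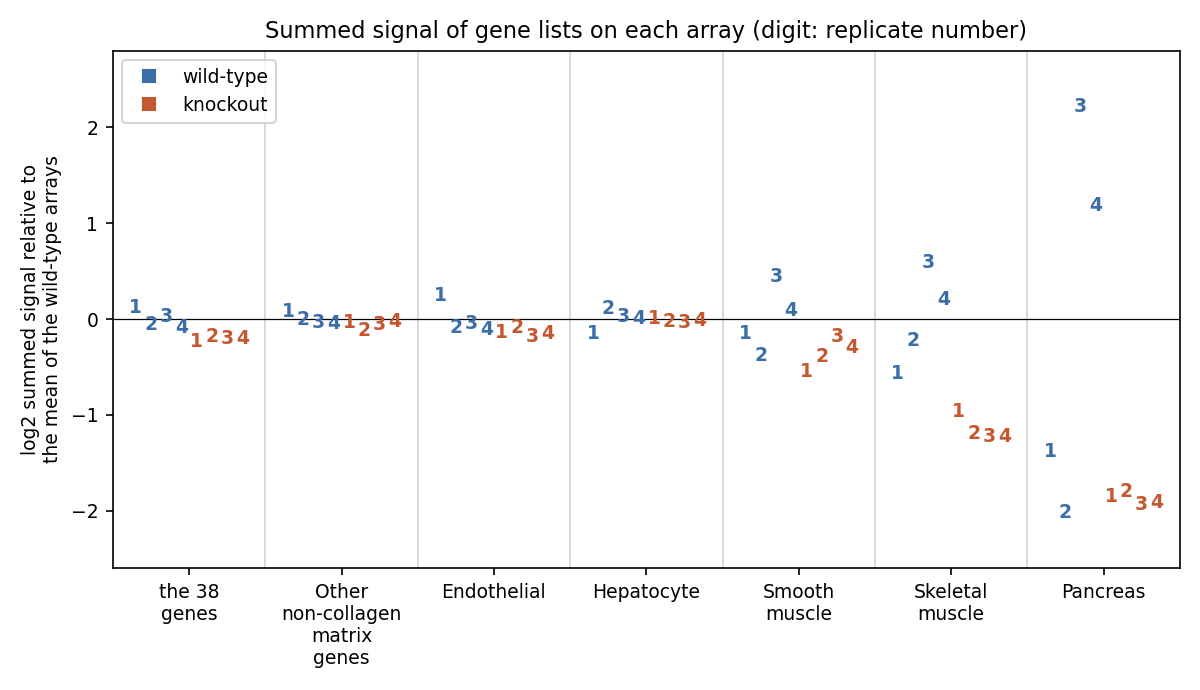
Log2 of the summed signal of each gene list on each array, relative to the mean of the wild-type arrays, with digits for replicate numbers (blue wild-type, orange knockout). By this sum the 38 genes (mostly the Sparc signal) and skeletal muscle markers separate the genotypes; by the mean difference of their genes the smooth muscle, cholangiocyte and other matrix lists do so too. The pancreas list is high in wild-type 3 and 4, and hepatocyte markers stay within 12.37 to 12.62 before centring.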

How the data were processed

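Total RNA from 8 livers was labelled with Cy3 and hybridised to 1 Agilent array each, per the labels' protocols. The scanner files the authors deposited give spot intensity on a linear scale. The submitters' processing notes name Feature Extraction 10.10. Their deposited value table holds 27084 probes in log2 units. Each column tracked log2 of that array's median signal (r from 0.99995 to 0.999994) with column medians of 8.84 to 8.86, and its normalization is not given in the sources used here.

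Here the processed signal was put on the log2 scale and the 75th percentile of all non-control spots subtracted per array. Control and outlier spots were left out, spots of 1 probe were averaged, and 87 probes with no usable spot on some array were dropped. No spot was saturated. Probes well above background on fewer than 4 of 8 arrays were dropped, and the remaining probe with the highest mean stood for a gene. Names were updated by accession for 27235 probes and by synonym for 565 with a RefSeq table (GRCm38.p6). The 38 genes kept the name in the files.

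All 23526 genes were fitted with limma 3.58.1 (R 4.3.3), two-sided, with Benjamini-Hochberg adjustment over all of them and no covariate. Genes with values in full were those without overlap, the 2 smallest p of each role group, and Acta2, Pdgfrb, Lum, Lrat and Hgf. Up to 3 genes of each other list were named by smallest p, and 1 that this rule picks is not reported here. The 38 genes and the lists were chosen with earlier results of these data known. On simulated arrays with 4 per group, changes of 0.5, 1 and 2 log2 in this comparison (23526 genes) were found in 40.3%, 75.5% and 97.0% of cases, and 4.81% of calls fell on unchanged genes. The simulated arrays were independent of each other, so these rates do not describe the real arrays if replicate 4 is not independent. Same-numbered arrays of the 2 groups were not treated as pairs in the main fit. Correlations of their deviations ran from -0.11 to 0.07 over all genes and from -0.02 to 0.14 over the 38. Whether they shared a litter or handling was not tested. Alternatives were the scaling, background correction, value table, filter, probe rule, variance model, replicate block, covariates, threshold and arrays left out.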

Additional observations from a re-analysis of the deposited data

Results flagged for a closer look

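Of 78 groups of 4 arrays checked (the 38 genes and their mean in each genotype), 3 held an array that stood apart. By chance about 1 group in 20 does. Lrat was -0.99 in knockout 1, above -1.38 to -1.34 in the other knockout arrays. Postn was 1.30 in knockout 2, above 1.04 to 1.07 in the others. Tgfbi was 4.44 in wild-type 1, above 3.83 to 3.88 in the others.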

How the results depend on the processing

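The median difference of the 38 genes stayed negative under every alternative run, from -0.39 (Xist as a covariate) to -0.19 (without knockout 3 and 4). Of the 38 genes, 26 kept the sign of their difference in all alternatives and 12 did not, none of which was called in any. The number of genes called moved with the setting, and the cause was not tested. With 42 lower and 9 higher over all genes as reported, and 0 of the 38, quantile normalization gave 66 lower, 14 higher and 1 of the 38. Normexp with the 75th percentile gave 118, 14 and 5, normexp with quantile normalization 124, 25 and 5, and the values the authors deposited gave 107, 17 and 3 (of 33 with a probe there). Robust eBayes with a trend gave 119, 30 and 4. Scaling by the median gave 61 lower and 13 higher over all genes and called 2 of the 38. A filter on all 8 arrays gave 54 lower and 8 higher, and also 2 of the 38. Without a filter 19 were lower and 0 higher over all genes. With the replicate block 17 were lower and 2 higher, with 0 of the 38. Xist as a covariate gave 15 and 3, and Ddx3y gave 78 lower and 7 of the 38. A threshold of 0.01 gave 17 and 0, and 0.1 gave 143 and 57, with 4 of the 38.

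When single arrays were left out in turn, between 14 and 66 genes were lower and between 0 and 24 higher, with 0 to 3 of the 38, the 3 being Fbln2, Ogn and Thy1 without knockout 2. With both replicate 4 arrays removed, the counts were 6 and 0. Without wild-type 3 and 4 the counts were 11 and 2, and without knockout 3 and 4 they were 9 and 3, with 11 of the 38 at an unadjusted p under 0.05. Chosen after seeing the data, leaving out replicate 3 of both groups gave 12 and 2, with 12 of the 38 at that p. Leaving out replicates 3 and 4 of both gave 3 and 1, with 6 of the 38 at that p. The shares of all genes at that p in these subsets are not given, so the counts of 11, 12 and 6 have no background beside them. Precision is limited by having 4 arrays per group: the 95% intervals of the 38 genes had a median half-width of 0.27 log2.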

Other observations

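Some matrix genes outside the 38 are named here after their values were seen. Dpt, which encodes dermatopontin, differed by -2.79, with 2 of the 4 knockout arrays not measuring it well above background. Mgp, matrix Gla protein, differed by -1.08 and Mfap2, a microfibril glycoprotein, by -0.67, both with no overlap and neither past limma's adjusted threshold.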
